A study of Mus musculus with 12 samples.

Results

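A set of 8 genes known from follicular helper T (Tfh) cells were followed in Th0, Th17, and iTreg cultures of murine CD4+ T cells. They are Bcl6, Tox2, Pou2af1, Il21, Cxcr5, Icos, Sh2d1a, and Cd200, 8 of the 11247 genes that were listed in at least 1 of 2 expression tables. The members were chosen by their symbols, with their levels in these same libraries known, so that their levels and differences are given here as a description. Where a member passed or missed the threshold of a fit over all genes, this is stated as part of that description, and no p-value is given for a member. All 8 members were listed in the table of Th17 and Th0 libraries, which holds 11077 genes. In the table of iTreg and Th0 libraries, which holds 11056 genes, 7 members were listed and Il21 had no row.

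Naive CD4+ T cells came from the spleens of C57BL/6 mice of 8 to 10 weeks and were cultured for 3 days, with 4 libraries from independent cultures in each group. All groups received plate-bound anti-CD3 and anti-CD28, each at 1 µg/ml, and Th0 cells received nothing else. The medium of Th17 cells also held 30 ng/ml IL6, 5 ng/ml TGFβ1, and 10 µg/ml each of neutralizing anti-IL4 and anti-IFNγ. The medium of iTreg cells (induced regulatory T cells) held 10 ng/ml IL2 and, by the labels, 10 ng/ml TGFβ1, for which the paper's methods state another concentration. The neutralizing antibodies were in the Th17 cultures and not in the Th0 or iTreg cultures, so their part in a difference and that of the cytokines cannot be told apart.

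Tfh cells reside in B cell follicles and help B cells to form germinal centres. BCL6 is the transcriptional repressor that defines them, CXCR5 is the chemokine receptor that guides them into the follicle, and IL21 is the cytokine through which they act on B cells. IL21 is also made by Th17 cells, where IL6 induces it through STAT3, and IL6 and STAT3 take part in the early induction of BCL6.

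The stretches before the start sites of the members show which short motifs stand next to genes that moved with or against each other. Of the 8 members, 5 matched the RefSeq promoter table of build GRCm38.p6 (Bcl6, Tox2, Pou2af1, Il21, and Cd200). The members Cxcr5, Icos, and Sh2d1a were not matched. Below, 250 bases before the start site nearest to the 5′ end of the gene are printed 5′ to 3′ on the strand of the gene. Bcl6 (chr16:23988853-23989102, minus strand) and Pou2af1 (chr9:51213440-51213689, plus strand) are shown because they were higher in Th17 and lower in iTreg than in Th0 libraries, Il21 (chr3:37232637-37232886, minus strand) because it had the highest ratio to Th0, and Cd200 (chr16:45409054-45409303, minus strand) because it was lower in both cultures. Capitals mark matches on either strand to a STAT motif (TTCNNNGAA), an AP-1 motif (TGANTCA), or the core of an NFAT motif (GGAAA).
Bcl6: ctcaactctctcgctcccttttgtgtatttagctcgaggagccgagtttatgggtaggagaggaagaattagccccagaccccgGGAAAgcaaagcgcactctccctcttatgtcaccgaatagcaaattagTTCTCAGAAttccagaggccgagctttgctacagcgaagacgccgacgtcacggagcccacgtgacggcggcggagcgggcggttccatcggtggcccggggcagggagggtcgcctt
Pou2af1: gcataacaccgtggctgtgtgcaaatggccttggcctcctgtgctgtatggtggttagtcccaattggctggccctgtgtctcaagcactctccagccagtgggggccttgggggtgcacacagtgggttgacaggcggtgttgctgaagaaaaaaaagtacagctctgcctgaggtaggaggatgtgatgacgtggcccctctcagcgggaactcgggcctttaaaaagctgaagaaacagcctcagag
Il21: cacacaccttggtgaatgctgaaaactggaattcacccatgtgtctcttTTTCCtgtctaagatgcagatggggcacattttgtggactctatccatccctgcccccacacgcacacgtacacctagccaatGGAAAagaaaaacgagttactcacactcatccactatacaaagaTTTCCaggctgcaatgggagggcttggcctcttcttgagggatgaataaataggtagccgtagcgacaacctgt
Cd200: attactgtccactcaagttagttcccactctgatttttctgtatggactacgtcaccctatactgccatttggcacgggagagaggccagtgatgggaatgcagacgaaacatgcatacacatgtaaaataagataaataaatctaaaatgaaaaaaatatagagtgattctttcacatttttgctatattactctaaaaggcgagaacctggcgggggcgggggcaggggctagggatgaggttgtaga

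The Bcl6 stretch held 1 STAT match, TTCTCAGAA, from 118 to 110 bases before the start, and 1 NFAT core match. The Il21 stretch held 3 NFAT core matches and no STAT or AP-1 match. None of the 3 motifs was found in the stretches of Pou2af1, Cd200, or Tox2, and no matches overlapped. Of 32536 different RefSeq stretches of the same length, 7.04% held the STAT motif, 6.73% the AP-1 motif, and 55.7% the NFAT core. The table gives 2 starts for Bcl6 and 5 for Tox2, and values per gene do not show which start was used.

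Values are FPKM, fragment counts scaled to transcript length and library size, and are therefore levels per length. From the steps between low values, whole reads could be recovered for 99.9% of genes, with 6819080 to 10046440 reads per library. The Th0 values differed between tables by a constant factor of 1.009 to 1.012 per library. Th0 values below are from the Th17 table, and Th17 and iTreg values, which were scaled apart, are set side by side without a test. Libraries are named by their column headings, which end in 1 for Th0, 5 for Th17, and 4 for iTreg and begin with M22, M29, M42, or M43. Libraries with the same beginning deviated from their group means together, so that a fit with this beginning as a block was also made. It is given where it moved a count by over 1.5 times and for some of the named genes, mostly where it changed a call. It kept every call of a member or list gene that was lost when a library was left out. Other named genes, among them Tox and Stat5a in Th17 and Id2 and Jak3 in iTreg, were called only with the block, which is not repeated below. That fit called 37.8% of all genes tested in Th17 and 40.9% in iTreg. Of 5 Th17 markers, all were listed in the Th17 table, with a summed level of 484 to 1030 FPKM in Th17 and 13.9 to 28.0 FPKM in Th0 libraries. Of 3 iTreg markers, all were listed, with a summed level of 86.1 to 150 FPKM in iTreg and 5.83 to 14.6 FPKM in Th0 libraries of that table.

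The Th17 library M43_5 stood apart from the other Th17 libraries. Foxp3, the transcription factor that defines regulatory T cells, was at 42.5 FPKM in M43_5 and at 0.499, 0.502, and 4.50 FPKM in M22_5, M29_5, and M42_5. It was at 2.04 to 7.24 FPKM in Th0 and at 62.0 to 91.7 FPKM in iTreg libraries. M43_5 was also the lowest Th17 library for Bcl6, Tox2, Pou2af1, and Sh2d1a, and values without it are given for each of these members. Whether the level of Foxp3 has a part in their lower values was not tested.

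**Figure D1:**
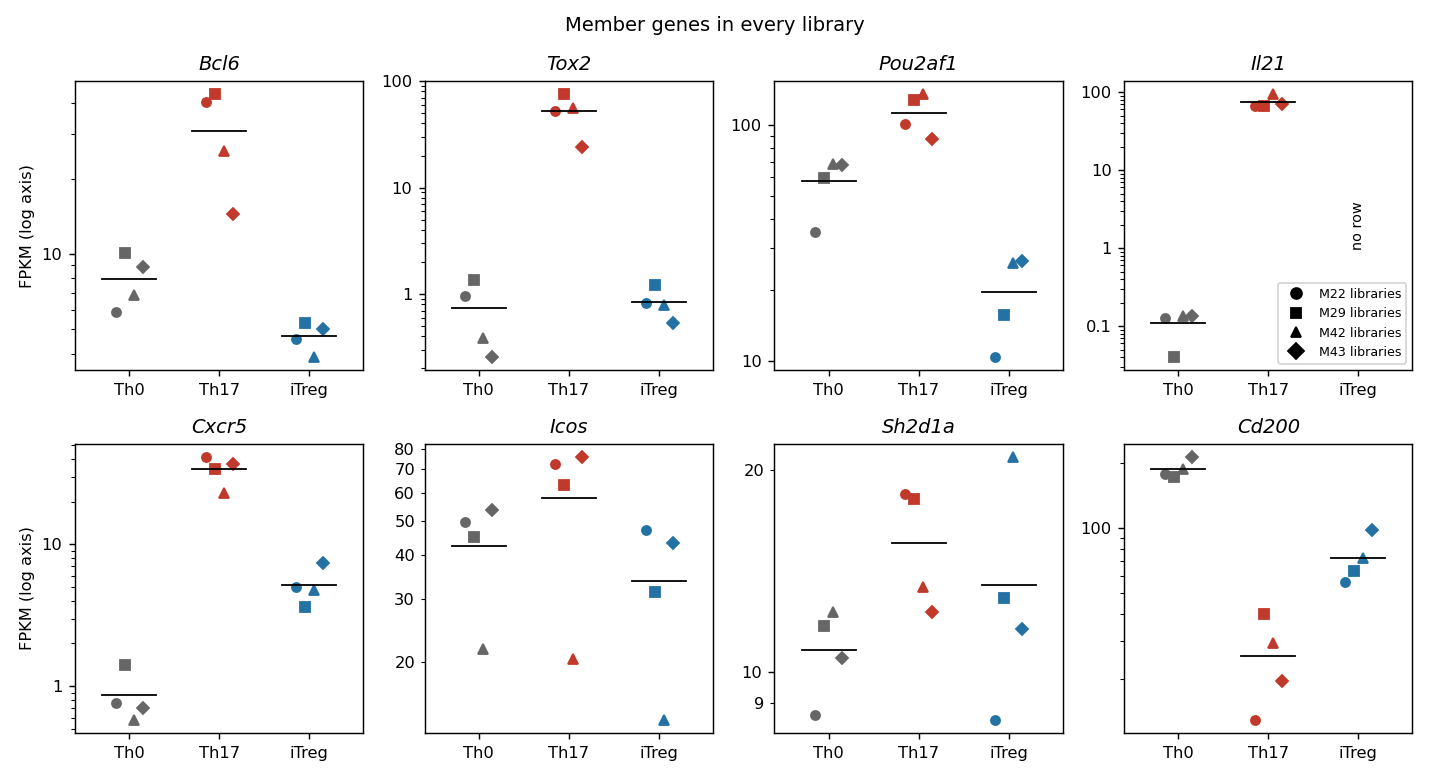
FPKM of the 8 members (log axis, a separate range in each panel) in the 4 libraries each of Th0, Th17, and iTreg cells, with the marker giving the beginning of the column heading and the line the group mean. Il21 and Tox2 sit at or below 1.37 FPKM in all Th0 libraries and at 24.0 FPKM or more in all Th17 libraries, while the groups overlap for Icos.

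Of the transcriptional regulators, Bcl6, Tox2, and Pou2af1 were all higher in every Th17 library than in any Th0 library. Bcl6 was at 5.85, 10.1, 6.84, and 8.90 FPKM in the Th0 libraries M22_1, M29_1, M42_1, and M43_1. In the Th17 libraries with the same beginnings it was at 40.4, 43.4, 25.7, and 14.4 FPKM. The Th17 libraries were spread widely, with M43_5 nearest to Th0. In iTreg libraries Bcl6 was at 4.57, 5.30, 3.88, and 5.03 FPKM, below every Th0 library and with little spread. The Th0 mean was 7.92 ± 1.92 FPKM (SD, n = 4). The Th17 mean was 31.0 ± 13.5 FPKM (SD, n = 4), a ratio of 3.91, and the iTreg mean was 4.70 ± 0.620 FPKM (SD, n = 4). The difference from Th0 in log2(FPKM + 1) was 1.75 ± 0.33 (SE) for Th17 and 2.06 without M43_5. For iTreg it was -0.61 ± 0.16 (SE).

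Tox2, an HMG-box factor that acts in a positive loop with BCL6 in Tfh cells, was nearly absent outside Th17 cultures. It was at 0.956, 1.37, 0.387, and 0.256 FPKM in the Th0 libraries, which rest on 12, 18, 6, and 4 reads. In the Th17 libraries it was at 52.9, 75.4, 55.8, and 24.0 FPKM. Every Th17 library was at least 55.1 times above the Th0 library with the same beginning, the M29 pair being the nearest. In the iTreg libraries it was at 0.820, 1.21, 0.795, and 0.534 FPKM, overlapping with Th0. The Th17 mean was 52.0 ± 21.2 FPKM (SD, n = 4), and 61.4 ± 12.3 FPKM (SD, n = 3) without M43_5, against 0.742 ± 0.517 FPKM (SD, n = 4) in Th0. The ratio of pooled reads, corrected for library totals, was 74.1 for Th17 (95% exact Clopper-Pearson interval 54.3 to 104, covering counting error only) and 1.19 for iTreg (0.775 to 1.83).

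Pou2af1 encodes OCA-B (also OBF-1), the coactivator of the OCT1 and OCT2 factors, best known from B cells and also active in T cells. It was at 35.1, 59.6, 68.2, and 67.8 FPKM in Th0 and at 101, 128, 135, and 87.2 FPKM in Th17 libraries. The iTreg libraries were at 10.4, 15.6, 25.9, and 26.5 FPKM. The 3 groups did not overlap, and M22 libraries were the lowest in Th0 and iTreg. The difference in log2(FPKM + 1) was 0.98 ± 0.23 (SE) for Th17, or 1.96-fold in the means, and -1.54 ± 0.32 (SE) for iTreg. Without M43_5 the Th17 mean moved from 113 ± 22.6 (SD, n = 4) to 122 ± 17.9 FPKM (SD, n = 3). In bulk libraries, fewer cells with a transcript and less RNA per cell cannot be told apart, for this and the other members.

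Since Pou2af1 is high in B cells, B cell markers were read beside it. Of 9 such markers only Cd79a was listed in either table, with 0.586 to 2.49 FPKM in Th17 and 0.646 to 3.84 FPKM in Th0 libraries. The other 8 markers, Ms4a1 and Pax5 among them, had no row. The part of B cells in the levels of Pou2af1 was not tested.

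The cytokine gene Il21 had the widest gap between Th17 and Th0 of all members. It was at 0.126, 0.0401, 0.136, and 0.135 FPKM in Th0 libraries, which is 3, 1, 4, and 4 reads. In Th17 libraries it was at 65.9, 66.0, 94.1, and 70.4 FPKM, on 1709 to 2622 reads. In Th17, M42_5 thus stood above the other 3 libraries, which were close to each other, and in Th0 all libraries were at the limit of detection. On pooled reads, 8367 against 12, the ratio was 662 (95% exact Clopper-Pearson interval 379 to 1280, counting error only). The log2(FPKM + 1) difference of 6.07 ± 0.13 (SE) understates this change, since the added 1 exceeds every Th0 value. The iTreg table has no row for Il21, and a level for iTreg cells is not given. The authors removed genes that did not exceed 1 CPM in at least 4 samples, which in that table are 4 iTreg and 4 Th0 libraries.

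Among the surface receptors, Cxcr5 rose in both cultures, Icos overlapped between all groups, and Cd200 fell in both. Cxcr5 was at 0.766, 1.41, 0.579, and 0.696 FPKM in Th0 libraries, on 14 to 29 reads. It was at 41.5, 34.1, 23.2, and 36.9 FPKM in Th17 and at 4.97, 3.64, 4.75, and 7.39 FPKM in iTreg libraries. The order Th17, iTreg, Th0 held for every library of the groups. On pooled reads the ratio to Th0 was 39.8 for Th17 (95% exact Clopper-Pearson interval 31.7 to 50.8) and 5.99 for iTreg (4.70 to 7.74), both for counting error only. The log2(FPKM + 1) difference was 4.22 ± 0.20 (SE) and 1.73 ± 0.20 (SE).

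Icos, the costimulatory receptor that Tfh cells need for their formation and upkeep, was at 49.8, 44.9, 21.7, and 53.6 FPKM in Th0 libraries. It was at 72.4, 63.3, 20.4, and 75.9 FPKM in Th17 and at 47.2, 31.5, 13.7, and 43.3 FPKM in iTreg libraries. The M42 library was the lowest in each group. Between libraries with the same beginning, Th17 was higher than Th0 in 3 of 4 and iTreg was lower than Th0 in 4 of 4. The difference in log2(FPKM + 1) was 0.36 ± 0.44 (SE) for Th17 and -0.36 ± 0.41 (SE) for iTreg. With the beginning as a block the SE for Th17 was 0.12 and for iTreg 0.10, and iTreg was then past the threshold. Without 1 library at a time the Th17 difference was 0.07 to 0.79 and the iTreg difference -0.65 to 0.01, where the highest values were those without M42_5 and M42_4.

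Cd200 encodes a surface glycoprotein whose receptor restrains myeloid cells, and is among the markers of Tfh cells. It was at 178, 173, 189, and 214 FPKM in Th0 libraries, the highest level of any member there. It was at 12.9, 40.1, 29.2, and 19.5 FPKM in Th17 and at 56.5, 63.0, 72.9, and 97.8 FPKM in iTreg libraries. The groups were in the order Th0, iTreg, Th17 without overlap, which for Th17 was the direction opposite to that of Bcl6, Tox2, Pou2af1, Il21, and Cxcr5. The mean fell 7.42-fold in Th17, from 189 ± 18.3 to 25.4 ± 11.8 FPKM (SD, n = 4), and 2.57-fold in iTreg, to 72.5 ± 18.1 FPKM (SD, n = 4). Of 8 myeloid and dendritic cell markers, 4 were listed in the Th17 table (Itgam, Cd74, H2-Aa, and H2-Ab1), with a summed level of 18.5 to 32.3 FPKM in Th0 and 2.46 to 15.9 FPKM in Th17 libraries. Most of this sum was Cd74, with means of 21.1 and 3.24 FPKM. Itgam, at 0.131 and 0.394 FPKM, H2-Aa, at 1.68 and 1.41 FPKM, and H2-Ab1, at 4.75 and 1.80 FPKM, overlapped between the groups. In the iTreg table the sum of the 2 listed markers overlapped, at 18.1 to 31.8 FPKM in Th0 and 10.3 to 34.7 FPKM in iTreg libraries. There Cd74 overlapped, with means of 20.9 FPKM in Th0 and 18.3 FPKM in iTreg. H2-Ab1 was lower in every iTreg than in any Th0 library, with means of 4.70 FPKM in Th0 and 0.640 FPKM in iTreg. The part of myeloid and dendritic cells in the lower Cd200 was not tested.

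Sh2d1a encodes SAP, the adaptor that signals below SLAM family receptors and is needed for lasting contact of T with B cells. It was at 8.64, 11.7, 12.3, and 10.5 FPKM in Th0 and at 18.4, 18.1, 13.4, and 12.3 FPKM in Th17 libraries. The iTreg libraries were at 8.50, 12.9, 20.9, and 11.6 FPKM. The lowest Th17 library, M43_5, stood just above the highest Th0 library, M42_1, at the same rounded value, and the iTreg libraries overlapped with both groups. The difference in log2(FPKM + 1) for Th17 was 0.48 ± 0.16 (SE) and 0.58 without M43_5, and for iTreg 0.26 ± 0.24 (SE). These values rest on only 53 to 154 reads per library. Of the exonic bases of Sh2d1a in the GENCODE annotation, 26.6% lie in exons of Tenm1 on the other strand, where counting without strand cannot tell the genes apart. The annotation used for the counts is not given, so whether this overlap applies to them is not known.

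**Figure D2:**
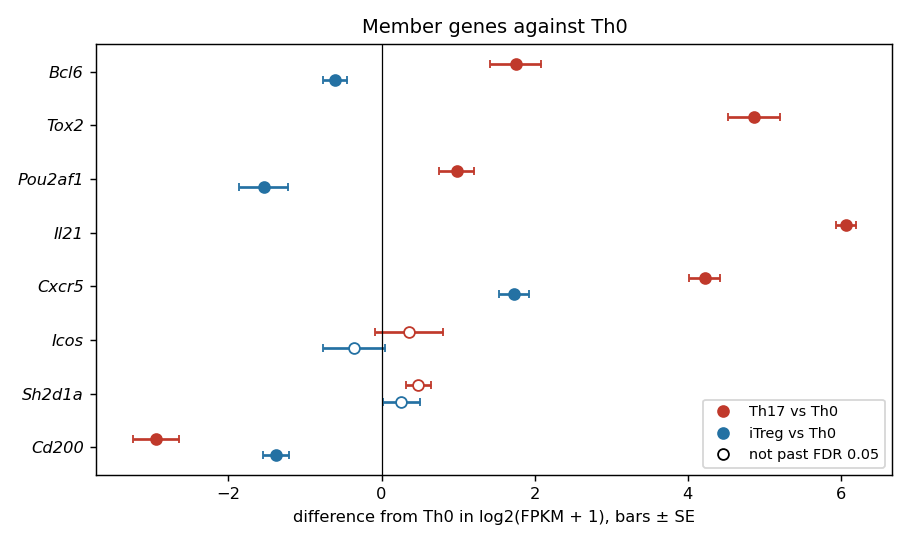
Difference of Th17 (red) and iTreg (blue) from Th0 libraries in log2(FPKM + 1) for each member, with bars of ± SE and open circles where the FDR of 0.05 was not passed. Bcl6 and Pou2af1 lie on opposite sides of 0 in the 2 comparisons, Cxcr5 lies above and Cd200 below 0 in both, and Il21 and Tox2 have no iTreg value.

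In limma's test across all genes at an FDR of 0.05, 6 of 8 members were differentially expressed (DE) in Th17 against Th0, 5 higher and 1 lower. Of all 10269 genes tested, 19.3% were DE, 10.6% higher and 8.69% lower. Groups did not overlap for 7 of 8 members and for 23.8% of all genes tested. In iTreg against Th0, 6 members passed the filter on low values, which Tox2 did not, and 4 were DE, 1 higher and 3 lower. Of all 10208 genes tested, 16.6% were DE, 8.36% higher and 8.21% lower, and the groups did not overlap for 4 of 6 members and for 22.8% of genes. Since the members were chosen on these contrasts, nothing is read from these counts. The call for Pou2af1 in Th17 was lost without M29_5 (log2 difference 0.92), and Sh2d1a was called without M43_5 and with the block. The call for Bcl6 in iTreg held without M22_1 or M42_1 and was lost without any of the other 6 libraries, at differences of -0.66 to -0.50. These fits had no block, and with the block on all libraries the call for Bcl6 held (SE 0.10). Bcl6 was lower in 4 of 4 iTreg libraries than in the Th0 library of the same beginning.

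**Figure D3:**
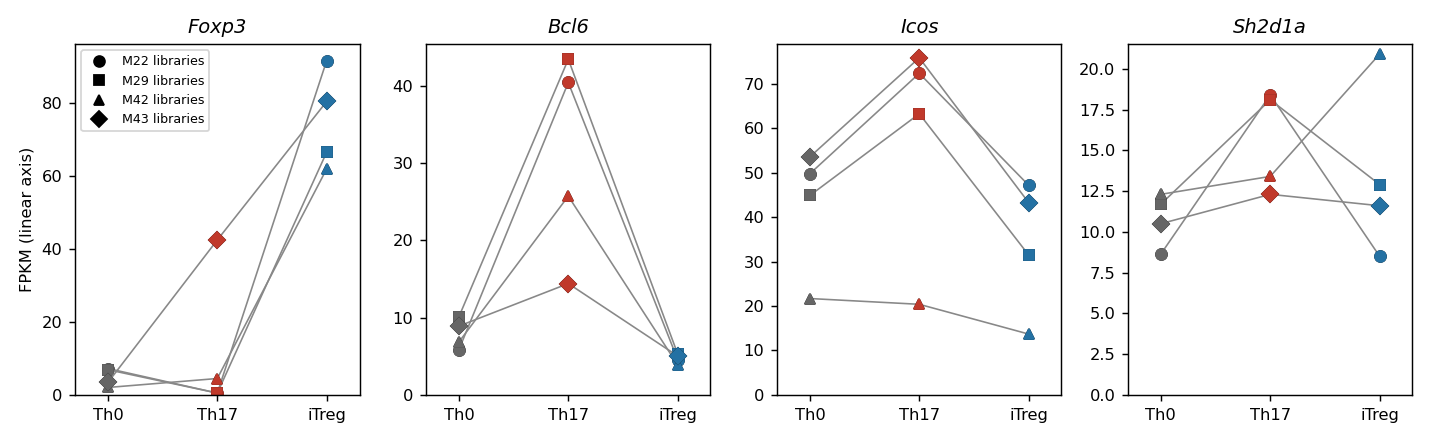
FPKM (linear axis from 0) of Foxp3, Bcl6, Icos, and Sh2d1a in Th0, Th17, and iTreg libraries, with lines joining libraries whose headings begin alike. The M43 line has the highest Foxp3 and the lowest Bcl6 among Th17 libraries, and the M42 line is lowest for Icos in all 3 groups.

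In the genome (GRCm38, the build called mm10, GENCODE gene bounds) Bcl6 lies at chr16:23965052-23988852 and Cd200 at chr16:45382135-45409053, both on the minus strand. Tox2 lies at chr2:163203125-163324170 on the plus strand and Il21 at chr3:37222759-37232636 on the minus strand. Pou2af1 at chr9:51213708-51240080 on the plus strand and Cxcr5 at chr9:44511787-44561877 on the minus strand share a chromosome. Icos lies at chr1:60977927-61000320 and Sh2d1a at chrX:42502453-42529330, both on the plus strand. The reads behind the values were counted over exons. In GENCODE, which need not be the annotation of the counts, exons of an antisense gene cover 8.92% of the exonic bases of Il21. They cover 3.30% of those of Cxcr5 and 0.313% of those of Bcl6, and none of Tox2, Pou2af1, Icos, or Cd200.

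Genes whose pattern was most like that of a member were taken by the lower of the 2 Pearson correlations over the 8 libraries of each table, among 10078 other genes. The 2 tables share the Th0 libraries, and the values are a description. Group means were not removed, so the correlations include the difference between the groups and do not show shared variation within them. Nearest to Cxcr5 was Vav1 (0.992), then Irf2bpl (0.982) and Dyrk4 (0.977). Nearest to Cd200 were Hivep3 (0.979), Sla (0.975), and Sh3rf1 (0.966), and nearest to Icos Lmtk2 (0.961), Tgfbr3 (0.951), and Slc27a4 (0.947). Bcl6 was nearest to Fam168a (0.920), B4galnt4 (0.914), and Unc119b (0.912), and Pou2af1 to Hif1a (0.930), Usp38 (0.921), and Fbxo21 (0.917). Sh2d1a had the lowest values, with Gm14325 (0.893), Tusc2 (0.854), and Pold4 (0.844). Tox2, which did not pass the filter in iTreg, and Il21, which had no row there, were left out.

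To set the members among other genes of the Tfh programme, 5 lists of 71 genes were read in the same 2 fits, with adjusted p from limma over all genes tested. In these fits 19.3% of all genes tested were DE in Th17, 10.6% higher and 8.69% lower. In iTreg 16.6% were DE, 8.36% higher and 8.21% lower. Of 16 Tfh transcription factors, 15 were tested in Th17 against Th0, of which 4 rose and 4 fell, and Ascl2 had no row. Maf, which induces Il21, was at 1.68 to 13.2 FPKM in Th0 and at 213 to 266 FPKM in Th17 libraries, a difference of 5.46 ± 0.43 (SE, adjusted p = 7.0e-05). Batf, the AP-1 factor needed for both Th17 and Tfh cells, differed by 2.26 (adjusted p = 4.1e-04), and Stat3, the transducer of IL6 and IL21 signals, by 1.62 (adjusted p = 1.1e-05). Pou2f2, which encodes OCT2, the partner of OCA-B, fell by 2.55 (adjusted p = 2.6e-04), so that it moved against Pou2af1. Egr3 fell by 2.06 (adjusted p = 1.0e-04), Lef1 by 0.86 (adjusted p = 0.0075), and Zbtb7b by 0.49 (adjusted p = 0.047). The call for Zbtb7b was lost without any library but M29_5, at -0.53 to -0.39. The median difference was -0.16, against 0.00 over all genes tested.

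In iTreg against Th0, 3 of the 15 tested transcription factors rose and 5 fell, where 8.36% of all genes rose and 8.21% fell. The median was -0.23 against 0.01 over all genes. Maf rose by 4.18 (adjusted p = 4.1e-04) and Stat3 by 0.65. Batf was at 26.7 to 35.2 FPKM in iTreg and at 24.7 to 38.7 FPKM in Th0 libraries. Pou2f2 fell by 1.46 and Egr3 by 1.45, while Tox, Nfatc1, and Lef1 fell by 0.50, 0.47, and 0.40. The calls held only without M22_1 for Tox, without M42_4 or M43_4 for Nfatc1, and without M29_1 or M29_4 for Lef1, and over all fits without a library these differences were -0.58 to -0.36. Leaving out M42_1, M43_1, or M22_4 brought the calls from 8 to 5. Tcf7, the TCF1 gene that acts upstream of Bcl6, differed by 0.94 ± 0.31 (SE, adjusted p = 0.066) in Th17 and by -0.34 ± 0.24 (SE, adjusted p = 0.39) in iTreg. With the block on the heading beginnings Tcf7 was called in both (adjusted p = 0.0047 and 0.038), higher in 4 of 4 Th17 and lower in 4 of 4 iTreg libraries than in the Th0 library of the same beginning. With the block, 13 of 15 transcription factors were DE in Th17, 7 higher and 6 lower, where 37.8% of all genes were.

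Of the genes that oppose the Tfh programme, 7 of 14 tested rose and 1 fell in Th17 against Th0, with a median of 1.00. Of all genes tested, 10.6% rose and 8.69% fell. The risen genes were Foxo1 (1.90), Runx2 (1.82), Il2rb (1.51), Id2 (1.41), Runx3 (1.20), Il2ra (1.10), and Stat5b (0.89), with adjusted p of 6.1e-06 to 0.029. FOXO1 represses Bcl6, and the IL2 receptor chains signal through STAT5 to hold Bcl6 down. Id3, whose product binds and restrains E proteins, fell by 1.75 (adjusted p = 2.4e-04). The call for Il2ra was lost without M29_1 (0.88), M42_1 (1.05), or M43_5 (0.90). Prdm1, which encodes the BCL6 antagonist BLIMP1, had no row in either table. In iTreg 12 were tested, Tbx21 and Runx2 not passing the filter, and 5 rose and 1 fell, with a median of 0.23. Of all genes tested there, 8.36% rose and 8.21% fell. Il2ra rose by 1.76 (adjusted p = 0.0030), Il2rb by 1.35, Foxo1 by 1.11, Stat5a by 1.10, and Stat5b by 1.02, and Id3 fell by 1.63.

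Of 17 Tfh surface receptors and ligands, 6 fell and 3 rose in Th17, where 8.69% of all genes fell and 10.6% rose. The median was -0.43. Btla, an inhibitory receptor, fell from 143 to 204 FPKM in Th0 to 10.2 to 21.1 FPKM in Th17 libraries (-3.25 ± 0.23 SE, adjusted p = 4.1e-05). Cd40lg, the ligand through which helper T cells activate B cells, fell from 42.6 to 93.0 FPKM to 5.56 to 14.1 FPKM (-2.81 ± 0.30 SE, adjusted p = 3.2e-04). Tnfsf8, Slamf6, Cd84, and Tnfrsf4 fell by 3.21, 2.88, 1.49, and 1.26. Cxcr4 rose by 1.82 (adjusted p = 0.0090), Ctla4 by 1.77, and Il6st, the signalling chain of the IL6 receptor, by 1.34. The call for Il6st was lost without M22_1 (1.41), M43_1 (1.29), M22_5 (1.35), M29_5 (1.30), or M43_5 (1.22). Pdcd1, the PD-1 gene that marks Tfh cells, was at 90.4 to 148 FPKM in Th0, at 82.1 to 96.6 FPKM in Th17, and at 126 to 223 FPKM in iTreg libraries, with differences of -0.24 ± 0.17 (SE, adjusted p = 0.37) and 0.60 ± 0.23 (SE, adjusted p = 0.11). With the block, Pdcd1 was called higher in iTreg (adjusted p = 0.0014).

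In iTreg 5 of the 17 fell and 0 rose in limma's test, where 8.21% of all genes fell and 8.36% rose. The median was -0.54. At an unadjusted p under 0.05, 8 were lower and 1 higher, and limma voom on the recovered reads called 6 lower and 0 higher. The fallen genes were Slamf6 (-2.96), Btla (-2.17), Cd84 (-1.22), Tnfsf8 (-1.07), and S1pr2 (-0.68), of which S1pr2 kept its call only without M42_1 or M29_4 (-0.85 to -0.59 without any 1 library). Tnfsf8 lost it without M22_1, M42_1, M43_1, or M22_4 (-1.02 to -0.93). Leaving out M22_1 or M22_4 reduced the calls from 5 to 3. With the block 14 were DE, 4 higher and 10 lower, where 40.9% of all genes were. Among them, Cd40lg was lower (adjusted p = 6.5e-04), and Cxcr4 and Ctla4 were higher (adjusted p = 1.0e-03 and 0.017). Slamf6 and Cd84 encode SLAM family receptors, whose adaptor SAP comes from the member Sh2d1a, and both fell in both cultures.

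**Figure D4:**
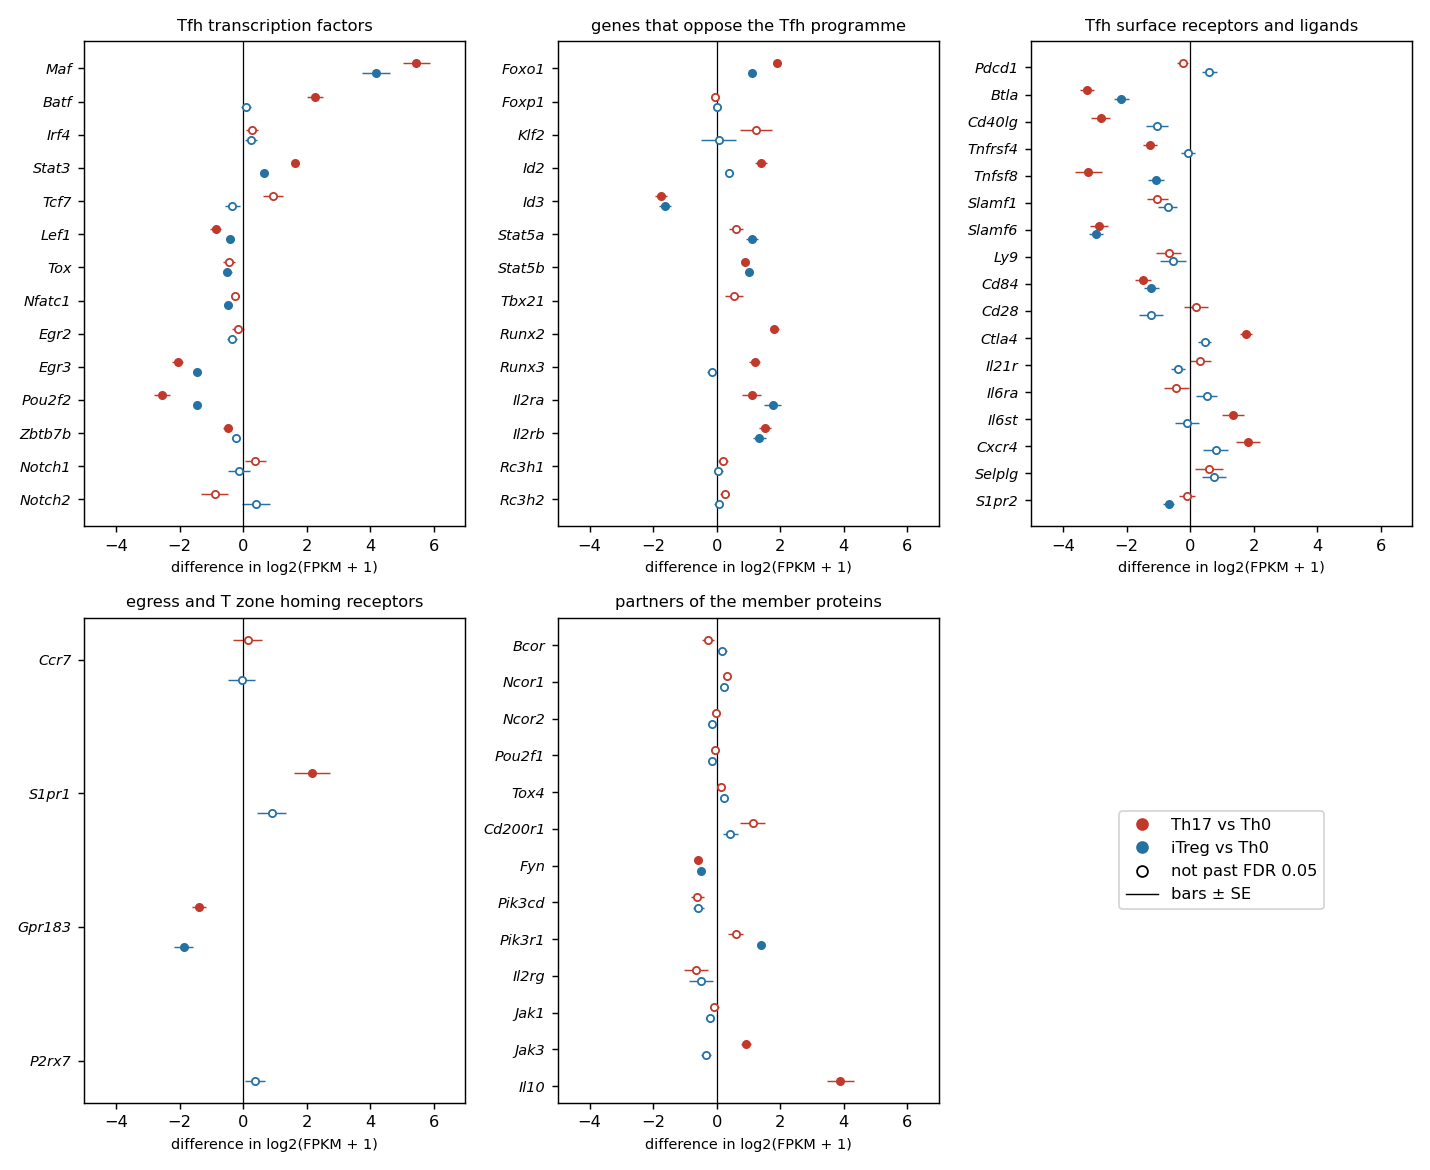
Difference from Th0 in log2(FPKM + 1) with bars of ± SE for tested genes of the 5 lists, Th17 in red and iTreg in blue, with open circles where the FDR of 0.05 was not passed. Maf, Stat3, Foxo1, and Il2rb rose and Egr3, Pou2f2, Btla, Slamf6, and Gpr183 fell in both comparisons, and Il10 was tested in Th17 only.

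Among the 5 egress and T zone homing receptors, Gpr183, the EBI2 receptor that positions cells at the edge of the follicle, fell by 1.40 in Th17 (adjusted p = 0.0025) and by 1.87 in iTreg (adjusted p = 0.0036). S1pr1, the receptor for exit from lymphoid tissue, differed by 2.17 ± 0.56 (SE, adjusted p = 0.028) in Th17, with overlapping groups. Of the fits without a library, its call held only in those without M29_1 (2.43) or M42_5 (2.72). With the block the Th17 call held (adjusted p = 0.0015), and S1pr1 was higher in Th17 in 4 of 4 pairs with the same beginning. In iTreg S1pr1 differed by 0.90 ± 0.46 (SE, adjusted p = 0.23), and with the block it was called higher (adjusted p = 6.3e-04). P2rx7 did not pass the filter in Th17 and differed by 0.38 ± 0.32 (SE, adjusted p = 0.50) in iTreg. Ccr7, the receptor that keeps T cells in the T zone, differed by 0.14 ± 0.46 (SE, adjusted p = 0.87) in Th17 and by -0.04 ± 0.43 (SE, adjusted p = 0.97) in iTreg. The median was 0.65 over the 4 genes tested in Th17 and -0.04 over the 5 in iTreg. With the block, 2 of 5 were DE in iTreg in place of 1, where 40.9% of all genes were in place of 16.6%.

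Of 18 partners of the member proteins, Tox3, Cd244, Il4, Gng4, and Sostdc1 had no row in either table. In Th17 13 were tested, where 2 rose and 1 fell, with a median of -0.01. Of all genes tested, 19.3% were DE in Th17 and 16.6% in iTreg. Il10 was at 0.164 to 3.71 FPKM in Th0 and at 16.1 to 36.3 FPKM in Th17 libraries (3.90 ± 0.44 SE, adjusted p = 4.3e-04). Jak3, the kinase of the shared chain of the IL2 and IL21 receptors, rose by 0.92 (adjusted p = 0.0033), and Fyn, the kinase that SAP recruits, fell by 0.60 (adjusted p = 0.0055). The receptor of CD200, Cd200r1, differed by 1.13 ± 0.38 (SE, adjusted p = 0.073). In iTreg 12 were tested, Pik3r1 rose by 1.41 (adjusted p = 6.2e-05) and Fyn fell by 0.48 (adjusted p = 0.0089), with a median of -0.14. With the block, 8 of 13 partners were DE in Th17 and 7 of 12 in iTreg, where 37.8% and 40.9% of all genes were. Cd200r1 was then called higher in Th17 (adjusted p = 0.021) and in iTreg (adjusted p = 0.012). Leaving out M42_5 brought the Th17 calls from 3 to 5. Pou2f1, the OCT1 gene, differed by -0.06 ± 0.10 (SE, adjusted p = 0.73) in Th17 and by -0.14 ± 0.09 (SE, adjusted p = 0.34) in iTreg.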

How the data were processed

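The 12 libraries (4 each of Th0, Th17, and iTreg cells) were grouped by the labels. The authors mapped the reads with TopHat2 2.0.14 to mm10, counted them on exons with HTSeq (union mode, no strand), removed genes without more than 1 CPM in at least 4 samples, and deposited FPKM values for 8 libraries in each of 2 tables. The calculation of FPKM and the annotation are not given in the sources used here. In addition, the authors deposited log2 fold changes and log2 average CPM, a likelihood-ratio score, and p-values with FDR of their edgeR comparison, which used pairs. These columns were not used.

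Genes above 1 FPKM in at least 4 of 8 libraries were tested on log2(FPKM + 1) within each table with limma 3.58.1 (R 4.3.3), two-sided and unpaired, and Benjamini-Hochberg adjusted (FDR 0.05). Whole reads were recovered from FPKM steps, within 0.01 reads, in Python 3.11.15 (numpy 2.4.6, pandas 2.3.3, scipy 1.17.1). They are estimates, and their intervals cover counting error only. Recovery and fits were tested on simulated data.

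The headings carry no replicate number. Correlations of deviations from the group means between libraries with the same heading beginning were 0.450 to 0.784 in the Th17 table and 0.662 to 0.769 in the iTreg table, over 4 pairs each. For the 12 pairs with different beginnings in each table they were -0.590 to 0.434 and -0.576 to 0.248. The beginning was therefore used as a block in an alternative fit. The members, lists, and tests were chosen with earlier results of these data known. Besides the 8 members, the text names DE genes of the lists and the 3 genes most like each member that was tested in both comparisons. It also names other list genes where 5 or fewer were not DE or their role touches a member. Of the marker lists, those for Th17, iTreg, B cells, and myeloid and dendritic cells were used, and the others are not reported here. A few list genes are counted but not reported here by name. The alternatives were another pseudocount (0.1), filters on low values, limma-trend, rescaling to equal medians, the block, and leaving out each library. Fits of voom on the recovered reads were added after seeing the data.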

Additional observations from a re-analysis of the deposited data

Results flagged for a closer look

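Bcl6 and Pou2af1 moved in opposite directions in the 2 cultures. All 4 Th17 libraries lay above all Th0 libraries, with ratios of the means of 3.91 for Bcl6 and 1.96 for Pou2af1, while all 4 iTreg libraries lay below them. The difference between Th17 and iTreg was not tested, since the tables were scaled separately, and the Th0 libraries are shared.

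For Il21, a library lay far from the other 3 in each of 2 groups: M29_1 at 0.0401 FPKM, which is 1 read, among the Th0 libraries, and M42_5 at 94.1 FPKM among the Th17 libraries. Chance alone flags about 1 in 20 groups of this size if values are normally distributed, and 23 groups were examined. The Il21 values in Th0 rest on 1 to 4 reads, so that this rate cannot be taken to hold for them.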

How the results depend on the processing

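No called member or list gene changed direction in an alternative that gave a value, while 14 differences that were not called did so when a library was left out. With the replicate block on the shared heading beginnings, DE genes rose from 1983 to 3882 (Th17) and from 1691 to 4170 (iTreg), and with voom on recovered reads and the same block to 4079 and 4454. In the same 2 blocked fits, Tfh transcription factors went from 8 to 13 and 14 in Th17, partners from 3 to 8 and 9 in Th17 and from 2 to 7 and 10 in iTreg, surface receptors from 5 to 14 and 14 in iTreg, and egress receptors from 1 to 2 and 2 in iTreg. Of the member calls, the block added Sh2d1a in Th17 and Icos in iTreg. The fits without a library had no block. Calls lost in them that held with the block were Pou2af1, Zbtb7b, Il2ra, Il6st, and S1pr1 in Th17. In iTreg they were Bcl6, Tox, Nfatc1, Lef1, Tnfsf8, and S1pr2. Leaving out a library gave 1364 to 2237 DE genes in Th17 and 1140 to 1521 in iTreg, and for the lists 1 to 2 egress receptors and 3 to 5 partners in Th17, and 5 to 6 transcription factors and 3 to 6 surface receptors in iTreg. Over all alternatives of list genes, 51 values lost and 97 gained a call, and 1828 did neither. A filter above 5 FPKM removed Cxcr5 from the iTreg test, so that members had calls of 3 lower and 0 higher. The differences of Tox2, Il21, and Cxcr5 depend on the pseudocount, Th17 values moving from 4.87 to 6.06, 6.07 to 8.49, and 4.22 to 5.18 with 0.1, and iTreg Cxcr5 from 1.73 to 2.50. Depth limits Il21, Tox2, and Cxcr5 in Th0, which rest on 1 to 29 reads per library.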
